A study of Mus musculus with 4 samples.

Results

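Immediate early genes were read on 4 mouse arrays that compare Snai1 knockout with control cells. The genes were Fos, Fosb, Jun, Junb, Egr1, Ier2, Ier3 and Atf3, which is 8 of the 18193 genes named on the array, and they were chosen by name. The array annotation gives them 9 probe sets, of which 0 are shared with another gene, and Jun has 2 of them. The groups were Snai1 knockout embryoid bodies and control embryoid bodies on day 5, and Snai1 knockout teratomas and control teratomas at week 6, with 1 array each. Embryoid bodies are stem cell aggregates that differentiate in suspension. They were started as hanging drops and kept in a medium for undirected differentiation. Teratomas are mixed-tissue tumours, grown here from embryonic stem cells put under the skin of the hind limbs of male nude mice aged 6 weeks. Both control groups have the genotype F/F in the labels, and the knockouts are labelled Snai1 knockout. The labels do not say whether a genotype is 1 clone or several, or whether a teratoma RNA pools several tumours, and the host's own cells are part of a teratoma. With 1 array per group no difference below has a replicate check or a p-value.

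Immediate early genes are transcribed within minutes of a growth factor, stress or depolarising signal, from factors that are already in the cell, such as serum response factor with its ETS partners and CREB. Fos and Jun family proteins pair through leucine zippers to form AP-1, which binds DNA at the letters TGANTCA. Their transcripts are short-lived, so the level in an RNA sample reads recent signalling as well as cell type. Fos family proteins need a Jun partner, and Jun proteins can also pair with each other. Egr1 is a zinc-finger transcription factor that binds GC-rich letters, and Atf3 is a stress-induced member of the ATF/CREB family. Ier3 encodes a short protein that affects cell survival, and Ier2 encodes a short nuclear protein.

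The sequences before the start sites show what control letters the members carry. They are printed for Fos, Junb and Ier3, whose knockout difference passed 2-fold in a tissue. Jun and Fosb are printed because their windows hold letters known for ATF and Snail factors. Ier2 also passed 2-fold, but no window of it was used. The windows are the 250 bases before each RefSeq start (build GRCm38.p6), 5' to 3' on the gene's strand, at chr12:85473640-85473889 (plus strand), chr8:84978749-84978998 (minus), chr17:35821463-35821712 (plus), chr4:95052223-95052472 (minus) and chr7:19310046-19310295 (minus). Capitals mark every match to the letters searched.
Fos: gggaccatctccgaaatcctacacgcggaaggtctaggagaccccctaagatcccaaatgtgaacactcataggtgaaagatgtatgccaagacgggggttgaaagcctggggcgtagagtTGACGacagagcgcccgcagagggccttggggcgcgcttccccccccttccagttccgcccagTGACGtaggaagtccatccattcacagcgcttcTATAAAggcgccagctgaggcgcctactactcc
Junb: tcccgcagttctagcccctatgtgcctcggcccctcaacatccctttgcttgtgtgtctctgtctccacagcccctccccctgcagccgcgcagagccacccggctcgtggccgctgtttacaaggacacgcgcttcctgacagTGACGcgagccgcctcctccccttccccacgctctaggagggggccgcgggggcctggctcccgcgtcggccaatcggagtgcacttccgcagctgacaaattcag
Ier3: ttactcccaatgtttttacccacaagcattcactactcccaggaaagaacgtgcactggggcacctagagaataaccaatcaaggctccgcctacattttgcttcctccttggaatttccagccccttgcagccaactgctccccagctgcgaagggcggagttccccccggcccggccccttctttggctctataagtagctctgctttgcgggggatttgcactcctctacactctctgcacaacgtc
Jun: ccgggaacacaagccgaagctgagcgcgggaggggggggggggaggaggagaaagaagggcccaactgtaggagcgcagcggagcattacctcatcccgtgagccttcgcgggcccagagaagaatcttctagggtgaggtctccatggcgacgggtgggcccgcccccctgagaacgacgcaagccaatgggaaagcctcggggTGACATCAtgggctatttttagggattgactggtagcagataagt
Fosb: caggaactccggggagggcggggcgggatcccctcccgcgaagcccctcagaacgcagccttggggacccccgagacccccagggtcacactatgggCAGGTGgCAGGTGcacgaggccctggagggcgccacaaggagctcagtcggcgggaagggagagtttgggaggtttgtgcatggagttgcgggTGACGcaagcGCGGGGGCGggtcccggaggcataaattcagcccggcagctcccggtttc
The letters searched on both strands were TGACG and TGACNTCA (CREB and ATF family), TGANTCA (AP-1), the CArG box (serum response factor), GCGNGGGCG (EGR family), CAGGTG (the E-box that Snail factors bind) and TATAAA, chosen with the sequences in view. TGACNTCA with G in place of N contains TGACG. RefSeq windows were used for 6 of the 8 members. No window of Egr1 or Ier2 was searched, so the member counts below say nothing about the letters before those genes.

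TGACG was found in 4 of 6 member windows, those of Fos, Fosb, Junb and Atf3, and in 17.8% of 32851 windows of the same length. In Fos it lies from -129 to -125 and from -66 to -62 relative to the start, and in Junb from -106 to -102. TATAAA was found in Fos, from -33 to -28, and in 12.4% of all windows. Jun holds TGACNTCA from -45 to -38, as do 7.49% of all windows. CAGGTG was found in Fosb, from -153 to -148 and from -146 to -141, and in 17.2% of all windows, and GCGNGGGCG was found in Fosb and in 4.70% of all windows. TGANTCA (6.75% of all windows) and the CArG box (1.47%) were found in 0 of 6. Bases farther from the start were not searched, so these counts do not show that a gene lacks such sites. Ier3 holds none of the letters searched in this window, which says only that. A match is a description of letters, and Fosb, the only member window with the Snail letters, was below the floor on all arrays.

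Facts of the whole series set the scale. Values are RMA log2 values, on which 1 unit is 2-fold, and a floor was put at each array's median over 45037 non-control probe sets, 4.73 and 4.71 in knockout and control embryoid bodies and 5.04 and 5.08 in knockout and control teratomas. A gene counts as measured in a comparison if at least 1 of the 2 arrays reached its floor. Snai1 itself, by its 1 probe set, read 3.45 in knockout and 4.78 in control embryoid bodies, and 3.44 in knockout and 3.59 in control teratomas. Only the control embryoid body value reached the floor, and the files do not place the probe set relative to the deleted part. Of 7 epiblast markers on the array 7 were at or above the floor in both embryoid bodies, and 5 in both teratomas. Of 5 neural markers 5 reached it in both teratomas, and 2 and 1 in knockout and control embryoid bodies. Of 6 cartilage and muscle markers 5 reached it in both teratomas and 3 in both embryoid bodies. All 5 gut and airway markers reached it on every array, so that count does not separate the tissues. The 3' minus 5' signal of Gapdh, a measure of RNA integrity and labelling, was 0.10 and 0.17 in knockout and control embryoid bodies and 0.40 and 0.65 in knockout and control teratomas. That of Actb was larger, at 0.31 and 0.38 in knockout and control embryoid bodies and 0.85 and 1.03 in knockout and control teratomas.

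For each of the 7 members that reached the floor on all 4 arrays, the highest value lay on a knockout array and the lowest on a control array. The knockout teratoma was highest for 5 of them and the knockout embryoid body for 2, and the control embryoid body was lowest for 4 and the control teratoma for 3. A knockout array highest and a control array lowest follows wherever knockout is above control in both tissues. The order therefore restates the signs given below and is not a separate result. Of the 10434 genes that reached the floor on every array, 31.1% had a knockout array highest and a control array lowest. The member outside that set was Fosb, which stayed below the floor on every array, at 4.60 and 3.93 in knockout and control embryoid bodies and 3.64 and 3.51 in knockout and control teratomas. Fosb, a Fos relative best known from stimulated neurons, is therefore given no fold. The order of its values is an order below the floor.

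**Figure D1:**
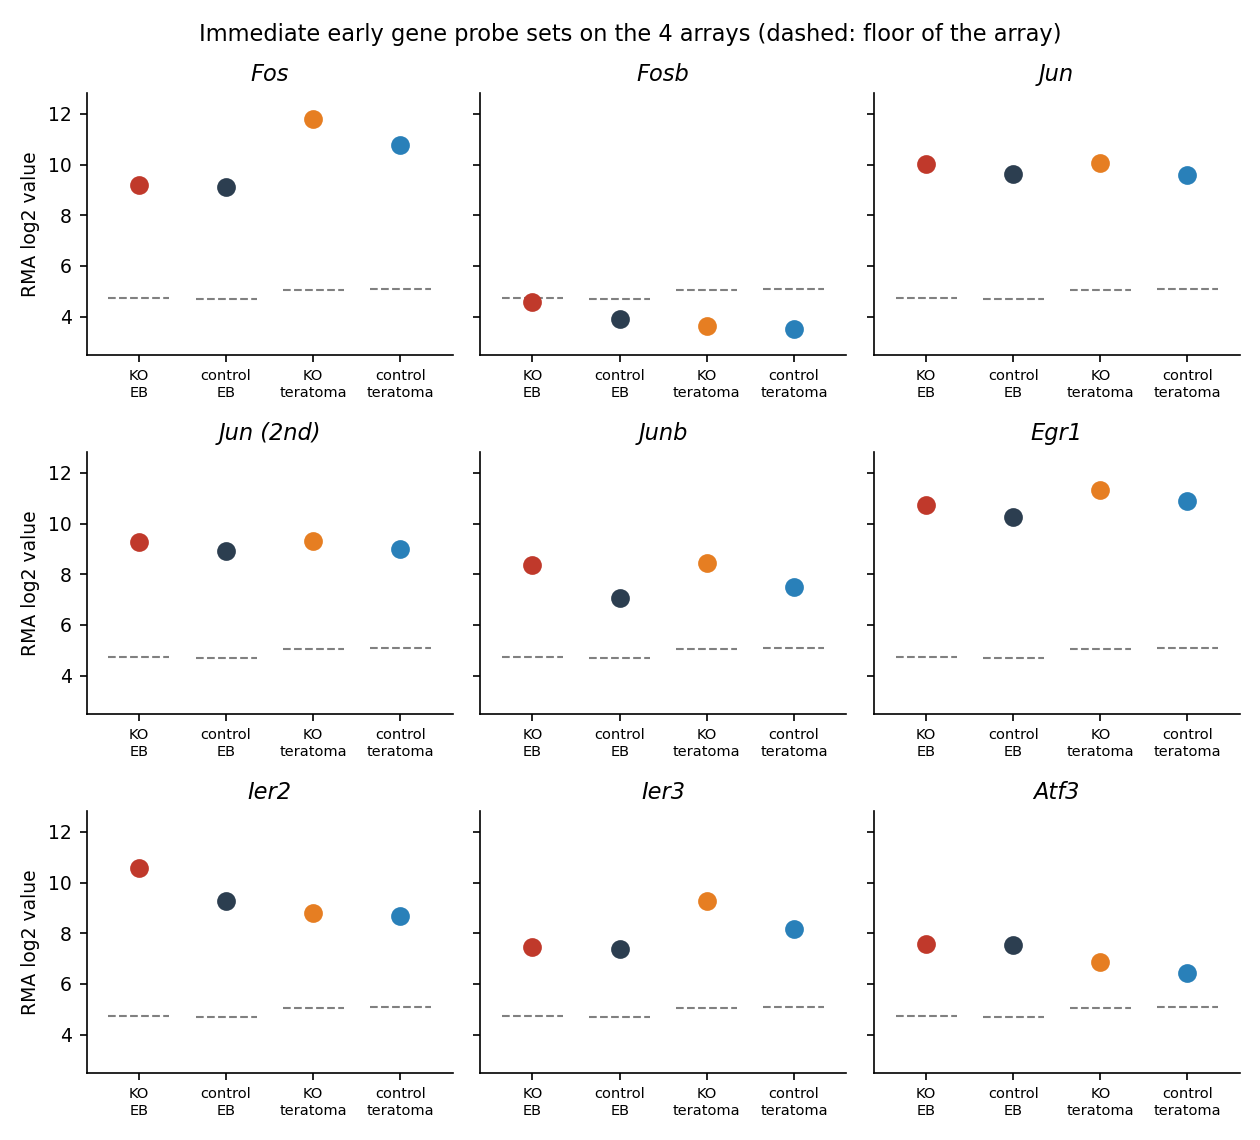
RMA log2 value of each immediate early gene probe set (y axis) on the knockout (KO) and control embryoid body (EB) arrays and the knockout and control teratoma arrays (x axis), 1 point per array, with each array's floor dashed. In the panels of the 7 members above the floor the KO point lies above the control point of the same tissue, Fosb lies below the floor on all 4 arrays, and Fos is highest in the KO teratoma at 11.79.

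The first comparison asked how the genes differ in day 5 embryoid bodies without Snai1. Junb and Ier2 were higher in the knockout by about the same amount, 2.49-fold and 2.48-fold, while Fos, Ier3 and Atf3 differed by no more than 1.05-fold. At 2-fold, 2 of the 7 measured members were higher and 0 lower, where 2.18% of 12282 measured genes passed 2-fold upward and 3.98% downward. All 7 measured members lay above 0, as did 53.3% of measured genes, and the members' median was 0.39 against 0.03 over all measured genes. RNA from whole embryoid bodies cannot tell more cells of a type from more RNA per cell.

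Junb, an AP-1 subunit that can also restrain Jun, read 8.36 in knockout embryoid bodies and 7.04 in control embryoid bodies. The difference of 1.32 ranked 127th from the top of 12282 genes. Ier2 read 10.57 in knockout embryoid bodies and 9.26 in control embryoid bodies, a difference of 1.31 that ranked 131st. Both are far larger than the pooled SD of 0.31 between the differences of a gene's probe sets. That spread is read on the same pair of arrays, so it leaves out variation between cultures. It comes from 5476 genes with several measured probe sets, whereas Junb and Ier2 have 1 each.

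Egr1 read 10.73 in knockout embryoid bodies and 10.27 in control embryoid bodies, a difference of 0.46 that 10.3% of measured genes exceeded. Jun, the AP-1 subunit that binds DNA with Fos or with itself, read 10.02 in knockout and 9.63 in control embryoid bodies on its brighter probe set. The other Jun probe set read 9.27 in knockout and 8.92 in control embryoid bodies, so the Jun differences were 0.39 and 0.35. These 2 genes lay slightly beyond the spread between probe sets, and under 1.5-fold. The remaining members hardly differed. Fos read 9.21 in knockout and 9.13 in control embryoid bodies. Ier3 read 7.45 in knockout and 7.38 in control embryoid bodies, and Atf3 read 7.58 in knockout and 7.55 in control embryoid bodies. Their differences of 0.08, 0.07 and 0.03 are well within the spread between probe sets.

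Some cell type markers also differed between the embryoid bodies. Of 6 fibroblast markers 6 were at least 2-fold lower in the knockout, with a summed linear signal of 711 in knockout and 21053 in control embryoid bodies and 0 of 6 below the floor on either array. Of 5 endothelial markers 4 were at least 2-fold lower, with summed signals of 497 in knockout and 1331 in control embryoid bodies. Of 7 epiblast markers on the array 5 were at least 2-fold higher, with summed signals of 5977 in knockout and 2348 in control embryoid bodies. Of 10 leukocyte markers 3 were measured and 1 was lower, with summed signals of 211 in knockout and 337 in control embryoid bodies. Other lists mostly did not pass 2-fold. Gut and airway markers had 0 of 5 past it, keratinocyte markers 0 of 4 measured and neural markers 0 of 2 measured. Of 3 measured cartilage and muscle markers 1, Col2a1 at 1.67, was at least 2-fold higher. The part of all these markers in the Junb and Ier2 differences was not tested.

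The second comparison asked the same of week 6 teratomas, and here other members led. Ier3 was 2.14-fold and Fos 2.04-fold higher in the knockout teratoma, Junb was 1.88-fold higher, and Ier2 differed by 1.07-fold. At 2-fold, 2 of 7 measured members were higher and 0 lower, where 3.25% of 12197 measured genes passed 2-fold upward and 1.07% downward. All 7 lay above 0, as did 57.6% of measured genes, and the median was 0.48 against 0.06 over all measured genes. Both calls sit near the threshold: after quantile normalization of the 4 arrays 0 members were called, with Ier3 at 0.98 and Fos at 0.91, and Ier2 lay at -0.01.

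Fos, the subunit that gives AP-1 with Jun its high DNA affinity, read 11.79 in the knockout teratoma and 10.76 in the control teratoma, a difference of 1.03 that ranked 367th from the top of 12197 genes. Ier3 read 9.27 in the knockout teratoma and 8.18 in the control teratoma, a difference of 1.09 that 2.53% exceeded. Its single probe set has the suffix _a_at, which marks sequence shared between transcripts of a gene. Junb read 8.43 in the knockout teratoma and 7.52 in the control teratoma, a difference of 0.91 that 4.11% exceeded. All 3 differences are well beyond the pooled SD of 0.29 between probe sets.

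Jun read 10.06 in the knockout teratoma and 9.57 in the control teratoma, and 9.30 in the knockout teratoma and 8.98 in the control teratoma on its other probe set, so the differences were 0.48 and 0.32. Egr1 read 11.33 in the knockout teratoma and 10.88 in the control teratoma, a difference of 0.45. Atf3 read 6.87 in the knockout teratoma and 6.42 in the control teratoma, also a difference of 0.45. About 14% to 16% of measured genes had larger positive differences than these 3 genes. Ier2 read 8.79 in the knockout teratoma and 8.69 in the control teratoma, a difference of 0.10 that is within the spread between probe sets.

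Markers of some cell types differed between the teratomas too. Of 10 leukocyte markers 7 were measured and 5 were at least 2-fold higher in the knockout teratoma, with a summed linear signal of 3591 in the knockout teratoma and 2492 in the control teratoma. Itgam, Cd79a and Cd3e were below the floor on both teratoma arrays, and S100a8, S100a9 and Ms4a1 on the control array only. Of 6 fibroblast markers 2 were at least 2-fold lower, with summed signals of 17842 in the knockout teratoma and 29583 in the control teratoma. Of 5 neural markers 2 were at least 2-fold higher, with summed signals of 12618 in the knockout teratoma and 8868 in the control teratoma. Of 5 gut and airway markers 2 were at least 2-fold lower, with summed signals of 3062 in the knockout teratoma and 5901 in the control teratoma. Of 7 epiblast markers on the array 5 were measured and 2 were at least 2-fold higher, Nanog at 1.53 and Pou5f1 at 1.31, with summed signals of 882 in the knockout teratoma and 817 in the control teratoma, and Fgf5 and Mixl1 were below the floor on both. Of 6 cartilage and muscle markers 5 were measured and 1, Myh3 at -2.09, was at least 2-fold lower, with summed signals of 5274 in the knockout teratoma and 3530 in the control teratoma. Acan was below the floor on both teratoma arrays. Endothelial and keratinocyte markers had 0 of 5 each past 2-fold. The Gapdh 3' minus 5' signal was 0.40 in the knockout teratoma and 0.65 in the control teratoma. The part of these markers and of RNA quality in the Fos, Ier3 and Junb differences was not tested.

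The knockout differences were then set side by side. Egr1 and Jun had nearly the same difference in both tissues, with teratoma less embryoid body values of -0.02 and 0.09. The values were larger in teratomas for Ier3, Fos and Atf3, by 1.03, 0.95 and 0.42. They were larger in embryoid bodies for Ier2 and Junb, at -1.22 and -0.41. At 1 log2 unit, 1 member, Ier3, had the larger difference in teratomas, against 6.78% of 11187 genes measured in both tissues, and after quantile normalization Ier3 was at 0.94 and 0 members passed. Likewise 1 member, Ier2, had the larger difference in embryoid bodies, against 3.34%. The 2 knockout comparisons share no array but set the same genotypes against each other. Of members measured in both, 7 of 7 lay above 0 in both, as did 28.7% of genes. That count includes differences within the spread between probe sets. They are Fos, Ier3 and Atf3 in embryoid bodies (0.08, 0.07 and 0.03) and Ier2 in teratomas (0.10, or -0.01 after quantile normalization). The differences between tissues were not tested, since neither tissue has a replicate.

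**Figure D2:**
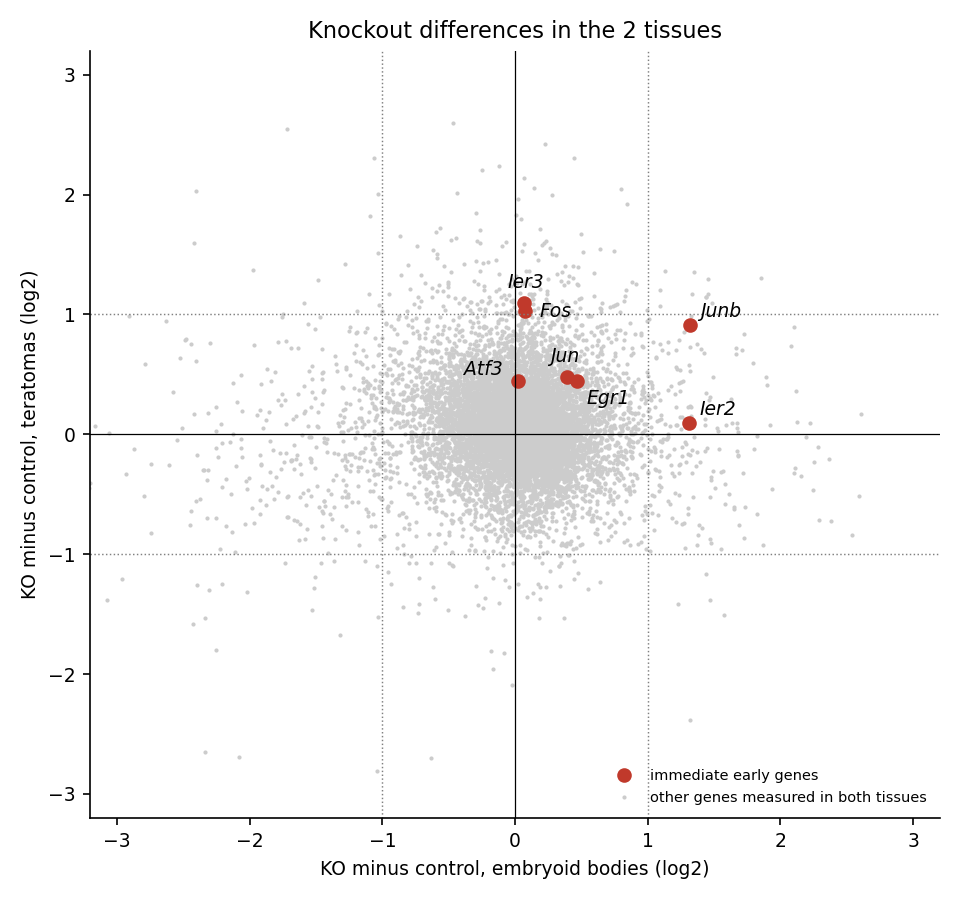
Knockout minus control log2 difference in embryoid bodies (x axis) and in teratomas (y axis) for the 7 measured immediate early genes (red) and for genes measured in both tissues (grey); dotted lines mark 2-fold, and 25 of 11187 genes lie outside the plotted range. Fos and Ier3 sit near 0 on the x axis and near 1 on the y axis, Ier2 sits at 1.31 on the x axis and 0.10 on the y axis, and Junb is at 1.32 and 0.91.

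The remaining comparisons set teratoma against embryoid body within each genotype, which also sets Trizol against column-purified RNA, so tissue and extraction cannot be told apart. They share arrays with the knockout comparisons, and only their values are given. In knockout cells Fos was 5.98-fold higher and Ier3 3.52-fold higher in the teratoma, and Ier2 was 3.45-fold lower. In control cells Fos was 3.09-fold higher in the teratoma and Atf3 2.19-fold lower. Jun hardly differed between the tissues, at 0.04 in knockout and -0.06 in control cells, its sign was negative in both genotypes once arrays were centred on their medians, and in control cells it turned to 0.15 after quantile normalization.

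At 2-fold, 2 of 7 members were higher and 1 lower in the knockout teratoma, against 19.8% of 12936 measured genes higher and 19.8% lower. In control cells 1 was higher and 1 lower, against 16.2% of 12956 measured genes higher and 19% lower. These shares are near the background. Among members under 2-fold, Egr1 differed by 0.60 in knockout and 0.61 in control cells. Junb differed by 0.06 in knockout and 0.47 in control cells, and Junb in knockout cells turned to -0.25 with centred arrays. Ier3 differed by 0.79 and Ier2 by -0.57 in control cells, and Atf3 differed by -0.71 in knockout cells. The pooled SD between probe sets of a gene was 0.76 in knockout and 0.74 in control cells, wider than in the knockout comparisons.

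**Figure D3:**
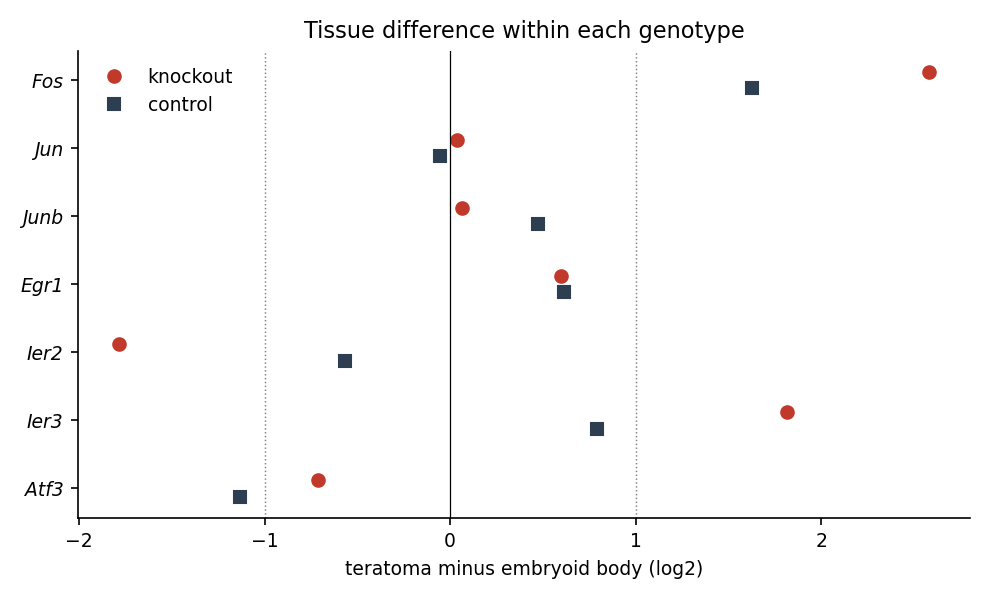
Teratoma minus embryoid body log2 difference (x axis) of the 7 measured immediate early genes (y axis) in knockout cells (circles) and control cells (squares), with dotted lines at 2-fold. Fos lies beyond 2-fold in both genotypes, at 2.58 in knockout and 1.63 in control cells, whereas Ier2 passes -1 in knockout cells only, at -1.79 against -0.57.

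Genes around the members in the pathway were read from lists chosen with earlier results of these arrays known. The closest list, 38 other immediate early genes, had a median of 0.36 in embryoid bodies over 37 measured genes, with 28 above 0, 3 at least 2-fold higher and 2 lower. In teratomas its median was 0.29 over 35 measured genes, with 25 above 0, 2 at least 2-fold higher and 0 lower. Over all measured genes in embryoid bodies 53.3% lay above 0, 2.18% were at least 2-fold higher and 3.98% lower. In teratomas these shares were 57.6%, 3.25% and 1.07%. The same shares stand beside the list counts below. Trib1, a pseudokinase gene, was 2.48-fold higher in knockout embryoid bodies, and the kinase gene Sgk1 was 2.42-fold higher (11.10 against 9.83). Egr2, an Egr1 relative, was above the floor in the knockout only and at least 2.11-fold higher, with another probe set at 0.10. Ptgs2, the inducible cyclooxygenase gene, was at least 3.33-fold lower, and Ccn2, a matricellular gene, 2.46-fold lower. With probe sets averaged Egr2 was at 0.59, Trib1 at 0.55 and Ptgs2 at -0.09.

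In teratomas the 2 other immediate early genes past 2-fold were Ccn1, a matricellular gene, at 2.41-fold higher (8.19 against 6.92) and the transcription factor gene Klf2 at 2.16-fold higher (8.28 against 7.17). Ccn1 was at 0.73 without shared-sequence probe sets. Nr4a1, an orphan nuclear receptor gene that serum and stress induce, was higher in the knockout in both tissues but under 2-fold. It read 8.17 in knockout and 7.37 in control embryoid bodies and 8.34 in knockout and 7.47 in control teratomas. Sgk1 in teratomas differed by 0.85.

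Among the 12 other partners of AP-1 proteins, 10 were measured, with a median of 0.01 in embryoid bodies and 0.18 in teratomas. Jdp2, a Jun partner that represses AP-1 sites and the gene next to Fos on chromosome 12, was 3.66-fold lower in knockout embryoid bodies, at 7.11 against 8.98. With the mean of its probe sets it was at -0.93. Batf, a Jun partner best known in lymphocytes, was 2.39-fold higher in knockout embryoid bodies, at 7.84 against 6.58. In teratomas 0 of 10 passed 2-fold, and Jdp2 differed by 0.54 and Batf by -0.75.

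Upstream genes differed between lists. Serum response and CREB factors, 11 on the array, had 0 past 2-fold in either tissue, with medians of 0.03 and 0.05 in embryoid bodies and teratomas. Srf, which drives many of these promoters, differed by 0.63 in embryoid bodies, and in teratomas it read 7.71 in the knockout and 7.72 in the control. The ETS factor gene Elk4 differed by -0.74 in embryoid bodies, with another probe set at 0.00. In teratomas Mrtfa differed by 0.71 and Crem by 0.70, with another Crem probe set at -0.03. Of the 11 genes 7 lay above 0 and 4 below in embryoid bodies. The JNK and p38 cascade had 1 of 8 measured genes at least 2-fold higher in embryoid bodies, Map3k5 at 1.02, and 0 in teratomas. The ERK cascade and feedback list had a median of 0.76 in embryoid bodies, with 4 of 12 higher, and of 0.11 in teratomas, with 1 of 12 higher. Dusp6, a phosphatase gene that reports ERK activity, differed by 1.68 in embryoid bodies and 0.02 in teratomas. The feedback inhibitor genes Spry1, Dusp4 and Spry4 differed by 1.34, 1.09 and 1.02 in embryoid bodies, and the ETS factor gene Etv5 by 1.20 in teratomas. The EGR co-repressor gene Nab2 differed by 0.51 and 0.39 in those tissues, and Nab1 by -0.11 and -0.18.

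Genes downstream or in stress pathways that share members' signals were mixed. AP-1 and EGR1 targets had 2 of 10 measured genes higher and 2 lower in embryoid bodies around a median of 0.28. The plasminogen activator receptor gene Plaur (1.25) and the growth factor gene Pdgfa (1.25) were higher, and the protease inhibitor gene Timp1 (-1.51) and the adhesion receptor gene Cd44 (-1.20) were lower. In teratomas 0 of 10 passed 2-fold, at a median of 0.39. ATF4 and ATF3 stress genes had 0 of 12 past 2-fold in either tissue, with medians of 0.10 and 0.34 in embryoid bodies and teratomas. Ppp1r15a, which relieves the block on translation, and Ddit3 both differed by 0.97 in teratomas, where the other Ddit3 probe set was at 0.21. In embryoid bodies Ppp1r15a differed by -0.12 and Ddit3 by -0.75, with the other Ddit3 probe set at 0.02. Among p53 targets 1 of 9 was at least 2-fold higher in teratomas, Gadd45a at 1.04, and 0 in embryoid bodies. Heat shock genes had 0 of 10 past 2-fold in embryoid bodies and 3 of 10 higher in teratomas: Hspa1a (1.53), Hspa1b (1.15) and Hspb1 (1.01). The heat shock list median in teratomas was 0.19, against 0.06 over all measured genes. The knockout teratoma thus had these 3 heat shock genes higher beside its higher Fos and Ier3. Their part in the Fos and Ier3 differences was not tested.

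**Figure D4:**
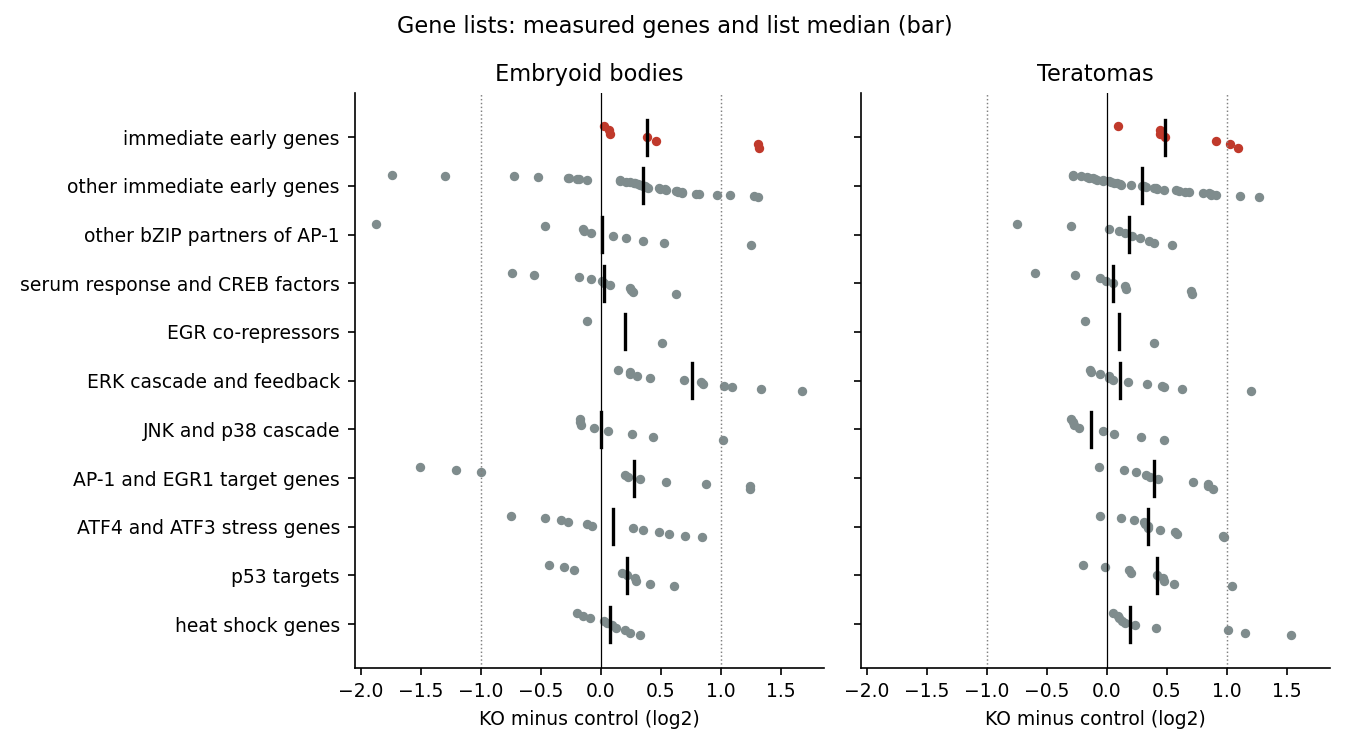
Knockout minus control log2 difference (x axis) of each measured gene in the 11 gene lists (y axis), in embryoid bodies (left) and teratomas (right), with a bar at each list's median and dotted lines at 2-fold. The immediate early genes (red) all lie above 0 in both tissues, with medians of 0.39 and 0.48, and the ERK list median is 0.76 on the left and 0.11 on the right.

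The genes with the 4-array pattern most like the members' median pattern were sought among the 10434 genes above the floor on all arrays. Likeness was the Euclidean distance between values centred on each gene's own mean, over 4 arrays. The members' median pattern was 0.20 and -0.53 in knockout and control embryoid bodies and 0.53 and -0.25 in knockout and control teratomas. The nearest genes were Il13ra1 (0.08), Sirpa (0.14), Cpne8 (0.15), Nr4a1 (0.19), Hpcal1 (0.21), Kcnmb4 (0.23), Tmem121 (0.24) and Arhgef26 (0.25), against a median distance of 1.19 for all other genes. Members themselves lay farther from their own median, from 0.42 for Egr1 to 1.86 for Fos.

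Neighbouring genes on the chromosomes gave values beside each member. Of the 16 nearest protein-coding genes on the array, 15 were measured, and their median knockout difference was 0.04 in embryoid bodies and 0.31 in teratomas. In embryoid bodies 0 of 15 were at least 2-fold higher and 1, Jdp2, was lower. Prdx2 and Hook2 on either side of Junb differed by -0.05 and 0.27 there, and Cacna1a and Nacc1 beside Ier2 by 0.38 and 0.18. In teratomas 1 of 15 was at least 2-fold higher, Reep2 beside Egr1 (7.16 in the knockout teratoma and 5.67 in the control teratoma), and Tmed10 and Jdp2 beside Fos differed by 0.32 and 0.54.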

How the data were processed

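Total RNA (250 ng per sample) from 2 embryoid body and 2 teratoma samples was amplified, labelled with biotin and hybridised, per the labels' protocols. The authors deposited log2 values per probe set, made with affy and RMA per the submitters' processing notes. RMA corrects background, normalizes by quantiles and summarises probes. The sources used here give no version and do not say if all arrays were processed together. The values carry no count depth, and the number of arrays limits their precision. Of 45101 rows, 64 were control probe sets. Genes came from the array annotation, limited to the 34945 probe sets that name 1 gene, and each gene took its probe set with the highest mean. Values below an array's median were set to it, and a difference with 1 array below is a bound ("at least"). A difference counted at 2-fold. Python 3.11.15, numpy 2.4.6 and pandas 2.3.3 were used, and the code was tested on simulated data. Of other lists, genes past 2-fold or among the 4 largest differences were named. The neighbouring genes were added after the data were seen. The members, lists and rules were chosen with earlier results of these data known. Alternatives changed the probe set, floor, scaling and fold.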

Additional observations from a re-analysis of the deposited data

Results flagged for a closer look

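Of the 7 immediate early genes measured in both tissues, 0 had knockout differences of opposite sign as deposited, and after quantile normalization Ier2 lay at -0.01 in teratomas and 1.33 in embryoid bodies. Among the genes of the other lists past 2-fold, 5 had knockout differences of opposite sign in embryoid bodies and teratomas, each beyond the pooled SD between probe sets. The difference between tissues was not tested, since each group has 1 array. The teratoma difference less the embryoid body difference was -2.01 for Batf (-0.75 in teratomas and 1.26 in embryoid bodies). It was 2.41 for Jdp2 (0.54 in teratomas and -1.87 in embryoid bodies) and 1.69 for Ccn2 (0.39 in teratomas and -1.30 in embryoid bodies). It was 2.39 for Timp1 (0.88 in teratomas and -1.51 in embryoid bodies) and 2.05 for Cd44 (0.84 in teratomas and -1.20 in embryoid bodies).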

How the results depend on the processing

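No paired analysis was possible because each group has 1 array and the labels give no replicate numbers. The 213 member values recomputed under the alternatives all moved by less than the spread between probe sets. All 48 knockout differences in embryoid bodies and 47 of 48 in teratomas stayed above 0, the exception being Ier2 at -0.01 after quantile normalization. Most of these values could not change sign. A member with 1 probe set above every floor keeps its value under the probe set and floor alternatives. Centring shifts all such genes of a comparison alike, so only quantile normalization treats them singly. The counts of called members were 2 higher in both knockout comparisons, and in embryoid bodies the count was 2 in every alternative run. In teratomas 0 were called after quantile normalization and 1, Fos, without shared-sequence probe sets, where Ier3 has no value. Without those probe sets 1 member was higher in the knockout teratoma against the knockout embryoid body. For the same comparison 2 members were lower with centred arrays. At 1.5-fold it had 3 higher and 2 lower, against 27.3% and 33.2% of all genes, and in control cells 3 were higher, against 23.4%. Centring moved the median teratoma minus embryoid body difference of all genes to -0.46 in knockout and -0.55 in control cells, against -0.15 and -0.18 as deposited, and made 15.7% of genes higher and 29.3% lower in knockout cells and 11.8% higher and 31.6% lower in control cells. With no floor Fosb differed by 0.67 in embryoid bodies and 0.13 in teratomas. At 1.5-fold the other immediate early genes had 11 higher in embryoid bodies and 10 in teratomas, against 6.92% and 10.3% of all genes. With the floor at the 65th percentile they had 1 higher and 1 lower in embryoid bodies, and with that floor Map3k5 was at 0.47, Trib1 at 0.79 and Ptgs2 at -0.23 there. With probe sets averaged they had 2 higher and 1 lower in embryoid bodies and 1 higher in teratomas. After quantile normalization Map3k5 was at 0.88, Hspb1 at 0.90 and Spry4 at 0.91. With probe sets averaged Jdp2 was at -0.93, Cd44 at -0.79, Spry4 at 0.24 and, in teratomas, Etv5 at 0.56. Signal over background limits Fosb, and 1 array per group limits every value.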
